A study of Mus musculus with 12 samples.

Results

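The genes described here carry the names of cytokines, chemokines, their receptors or immune surface molecules of the mouse. They were taken by name: every protein-coding gene of the RefSeq GRCm38.p6 gene table whose symbol starts with Il, Cd, Ccl, Ccr, Cxcl, Cxcr, Tnfrsf, Tnfsf or Tlr followed by a digit. The rule found 280 members among 21900 protein-coding genes. It leaves out cytokine genes with other names, such as Tnf, Ifng and Tslp, and takes in some genes that match by name only. The assay was RRBS (reduced representation bisulfite sequencing): DNA is cut at CpG-containing restriction sites, and bisulfite turns unmethylated cytosines into bases read as thymine. The 12 libraries came from splenic CD11c DC, dendritic cells taken by the integrin CD11c, of F1 female C57BL/6 mice. All 12 carry the immunization status OVA (ovalbumin, a model allergen), so no library of an animal without OVA was part of the comparison. The F0 mothers, obtained at 6 to 8 weeks of age, had received the plasticiser DEHP, di(2-ethylhexyl) phthalate, at 37 µg/kg/day for 10 days (6 libraries, F0-DEHP) or the vehicle (6 libraries, F0-corn oil), and were mated with untreated males. Neither the age of the offspring nor the number of mothers is stated. The comparison asks how maternal DEHP relates to methylation in the dendritic cells of the daughters, and the title of the series names allergic disease as its subject.

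The deposited tables are the authors' own comparison of the groups. Each line is a single CpG that passed their thresholds, with its difference in methylation (in percentage points), its p-value and its q-value, and there is no value for any single library. No spread between libraries and no read depth stand behind a difference printed here, and whether CD11c cells were contaminated by other cells cannot be read from these tables, since they hold no level for any marker gene. The table does not state the order of the subtraction. A positive difference (hypermethylated) is taken here to mean more methylation after maternal DEHP, and a negative one (hypomethylated) less. A CpG that is not listed may have been unchanged, changed by less than 25 points, left out on its q-value, or not covered. The table does not separate these cases.

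Dendritic cells take up antigen, sense microbial products through Toll-like receptors, and move to lymphoid tissue along chemokine gradients. There they show peptide to T cells, with costimulatory surface molecules such as CD80 and CD86 and polarising cytokines setting the type of response. In allergy the response leans to type 2, in which interleukin-4 and interleukin-13 act through receptors that share the interleukin-4 receptor alpha chain. Methylation of CpGs at a gene start often goes with low transcription, while methylation inside genes has no such simple reading. Transcription was not measured in these samples.

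The promoter windows of 8 members are shown as examples of members with and without a called site. Over all members with a window, the median count of CG was 6 with a called site and 5 without one. The windows are RefSeq GRCm38.p6 sequences from 250 bases before to 50 bases after a listed transcription start. They are printed 5′ to 3′ on the strand of the gene, with every CG in capitals. Tnfsf13b (chr8:10006217-10006516, plus strand) is the window that holds a called CpG, which begins at base 107. That CpG lies inside CCGG, the cut site of MspI, the enzyme commonly used in RRBS. The labels do not name the enzyme of this study.
Tnfsf13b: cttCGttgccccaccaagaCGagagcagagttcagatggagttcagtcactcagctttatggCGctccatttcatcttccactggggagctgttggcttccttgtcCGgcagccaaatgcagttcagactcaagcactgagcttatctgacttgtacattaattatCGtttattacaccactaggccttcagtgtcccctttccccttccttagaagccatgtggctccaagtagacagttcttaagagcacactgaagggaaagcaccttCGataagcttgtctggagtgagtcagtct
Il13ra1 (chrX:36111858-36112157, plus strand) has 28 CG and 3 CCGG, and its called CpGs lie just beyond the window. Cd80 (chr16:38458683-38458982, plus strand), Cd200r2 (chr16:44866847-44867146, plus strand) and Cd22 (chr7:30878979-30879278, minus strand) carry called CpGs further away and have 3, 2 and 4 CG.
Il13ra1: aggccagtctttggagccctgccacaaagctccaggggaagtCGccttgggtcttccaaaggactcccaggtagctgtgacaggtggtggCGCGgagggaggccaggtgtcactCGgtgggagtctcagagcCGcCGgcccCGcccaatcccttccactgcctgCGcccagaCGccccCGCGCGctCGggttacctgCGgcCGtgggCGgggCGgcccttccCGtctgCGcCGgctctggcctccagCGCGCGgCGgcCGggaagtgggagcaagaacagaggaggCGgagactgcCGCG
Cd80: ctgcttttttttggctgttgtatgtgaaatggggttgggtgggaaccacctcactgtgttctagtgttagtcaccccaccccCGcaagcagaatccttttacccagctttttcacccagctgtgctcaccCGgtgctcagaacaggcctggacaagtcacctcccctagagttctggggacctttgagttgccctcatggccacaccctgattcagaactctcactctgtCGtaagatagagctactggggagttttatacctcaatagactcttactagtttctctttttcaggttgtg
Cd200r2: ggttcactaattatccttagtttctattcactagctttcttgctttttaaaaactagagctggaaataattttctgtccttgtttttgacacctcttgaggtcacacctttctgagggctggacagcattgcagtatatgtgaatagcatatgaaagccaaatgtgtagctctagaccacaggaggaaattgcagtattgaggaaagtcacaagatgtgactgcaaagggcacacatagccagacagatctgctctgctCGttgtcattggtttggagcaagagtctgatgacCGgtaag
Cd22: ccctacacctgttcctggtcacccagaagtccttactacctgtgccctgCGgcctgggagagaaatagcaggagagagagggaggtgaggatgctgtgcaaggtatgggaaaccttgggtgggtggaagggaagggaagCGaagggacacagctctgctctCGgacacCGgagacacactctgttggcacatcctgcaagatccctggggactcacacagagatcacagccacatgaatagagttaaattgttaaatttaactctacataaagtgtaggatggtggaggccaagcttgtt
Members without a called site are represented by a pair of partners of Il13ra1 and by a sensor of microbial DNA. Il4ra (chr7:125552021-125552320, plus strand) has 25 CG, Il13 (chr11:53634653-53634952, minus strand) has 3 and Tlr9 (chr9:106222348-106222647, plus strand) has 0.
Il4ra: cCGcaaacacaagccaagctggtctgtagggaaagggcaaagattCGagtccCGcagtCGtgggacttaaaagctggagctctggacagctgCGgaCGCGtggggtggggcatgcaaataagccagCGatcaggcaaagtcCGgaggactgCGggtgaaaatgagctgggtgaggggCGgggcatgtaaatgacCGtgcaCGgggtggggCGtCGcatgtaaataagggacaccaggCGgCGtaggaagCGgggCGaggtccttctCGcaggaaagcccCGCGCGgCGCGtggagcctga
Il13: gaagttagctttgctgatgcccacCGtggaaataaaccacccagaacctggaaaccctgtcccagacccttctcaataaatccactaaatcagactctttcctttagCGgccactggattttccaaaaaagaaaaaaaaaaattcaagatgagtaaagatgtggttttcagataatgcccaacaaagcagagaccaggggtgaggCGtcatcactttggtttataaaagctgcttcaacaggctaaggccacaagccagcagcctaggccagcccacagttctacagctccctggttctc
Tlr9: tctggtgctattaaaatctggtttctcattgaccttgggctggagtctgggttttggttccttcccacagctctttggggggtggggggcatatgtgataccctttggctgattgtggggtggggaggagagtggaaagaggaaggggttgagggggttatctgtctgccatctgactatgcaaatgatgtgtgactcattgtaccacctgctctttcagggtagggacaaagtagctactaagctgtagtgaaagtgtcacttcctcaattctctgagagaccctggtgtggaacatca

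Of the 280 members, 13 carried a called site in the gene span or within 5 kb of it, which is 4.64%, against 6.51% of all protein-coding genes (1426 of 21900). At that background share 18.2 members would carry one. The 13 genes held 16 sites in the authors' deposited table, 5 hypermethylated and 11 hypomethylated, so that 5 members had a gain and 9 a loss. Among all protein-coding genes 3.48% had a gain and 3.77% a loss. Cd80 was the member with both directions, against 0.74% of protein-coding genes. Over the whole of the authors' deposited table, 51.6% of 2798 sites were hypomethylated. The 11 losses include 3 neighbouring CpGs of Il13ra1, and 2 of the 13 genes, Il13ra1 and Il1rapl2, are on the X chromosome. With autosomes alone there were 7 losses and 5 gains, at 11 of 269 members (6.47% of autosomal protein-coding genes carried a site).

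**Figure D1:**
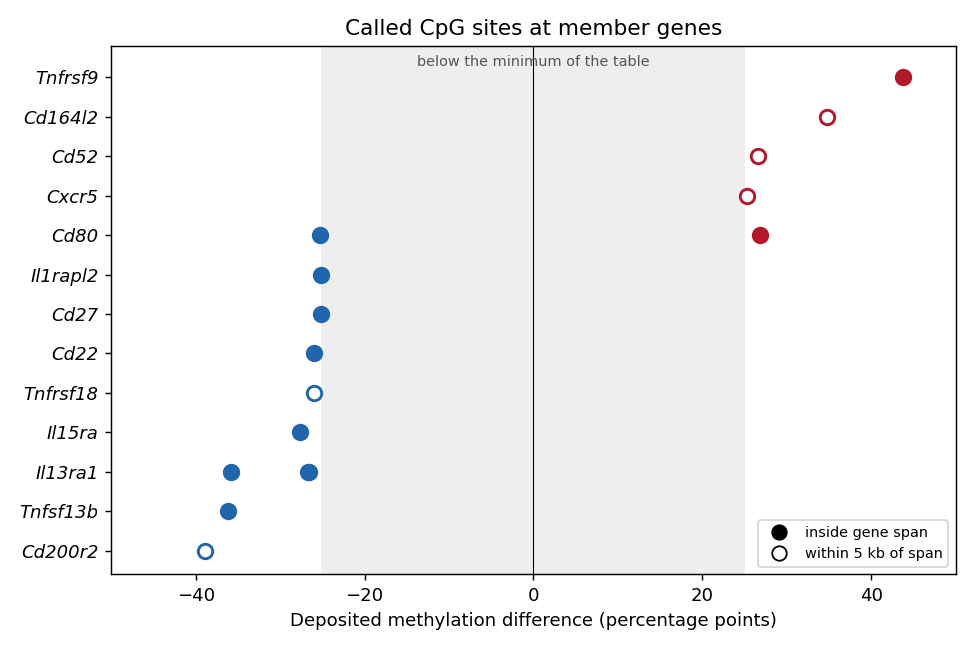
Each point is 1 called CpG at a member gene, placed by its deposited methylation difference in percentage points (filled, inside the gene span; open, within 5 kb of it; red, positive; blue, negative). The grey band is the range below the 25-point minimum of the table, and most points sit close to its edges, with Tnfrsf9 at 43.7 and Cd200r2 at -38.9 farthest out.

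The median size of the difference at member sites was 26.7 percentage points, against 28.7 over all sites in the authors' deposited table. Of the 16 sites, 11 differed by less than 30 points (68.8%, against 60.6% of all sites), and 1 by 40 points or more (6.25%, against 5.43%). The deposited q-value was 0 for 12 of the 16 (75%, against 74.1% of all sites), and the largest belonged to Cd27 (3.62e-05), which is also the largest in the whole table. No group mean, standard deviation or test over animals can be set beside these values.

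Of 41 interleukin receptor genes 3 carried sites, all hypomethylated, where the background share of 6.51% gives 2.67. Il13ra1 encodes the chain that binds interleukin-13 and forms the type II receptor together with the product of Il4ra. Its span runs from 36112108 to 36171262 on the X chromosome, plus strand. It was the one member with 3 or more sites, against 0.457% of protein-coding genes. The authors' deposited table lists its CpGs at 36112405 (-26.6 percentage points), 36112437 (-35.8 points) and 36112447 (-26.7 points), each with a deposited q-value of 0. They lie 297, 329 and 339 bp downstream of the listed start, all in a stretch of 42 bp, and their mean was -29.7 points. These CpGs are close enough to be read together and are not 3 independent observations. In female cells many CpG-rich promoters of the inactive X chromosome are methylated, which is background to any X-linked value here. Of the 11 X-linked members 2 carried a site, and of all X-linked protein-coding genes 9.11% did. Il15ra encodes the chain by which dendritic cells hold interleukin-15 and present it to natural killer and CD8 T cells. Its site at 11710646 on chromosome 2, inside the span and 4.93 kb downstream of the nearer of its 2 listed starts, was hypomethylated by -27.6 points in the authors' deposited table. Il1rapl2 has an interleukin receptor's name but encodes a synaptic adhesion receptor. Its site at 137820349 on the X chromosome (-25.1 points, the smallest difference among the 16 in the authors' deposited table) lies 250 kb downstream of the start of a 1278 kb span.

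The TNF superfamily had 1 ligand of 11 and 2 receptors of 20 with a called site, where the background share gives 0.716 and 1.30 genes. Tnfsf13b encodes BAFF, a survival factor for B cells that myeloid cells and dendritic cells release. Its site at 10006323 on chromosome 8 was hypomethylated by -36.1 percentage points in the authors' deposited table, with a deposited q-value of 0. It lies 144 bp upstream of the nearer of 2 listed starts and 310 bp upstream of the other, inside the annotated span, and is the CpG at base 107 of the printed window. Tnfrsf9 encodes CD137, a costimulatory receptor of activated T cells that dendritic cells can also carry. Its site at 150924166 on chromosome 4 was hypermethylated by 43.7 points in the authors' deposited table, the largest difference of any member. It lies inside the span, 4.01 kb downstream of the first listed start and 3.83 kb upstream of the second. Tnfrsf18 encodes GITR, a receptor of regulatory and activated T cells. The site at 156031672 on chromosome 4 was hypomethylated by -26.0 points in the authors' deposited table and lies 2.78 kb past the end of Tnfrsf18. It is also 3.16 kb from Ttll10, a tubulin-modifying enzyme gene, and 10 bp from the noncoding gene Gm16008, so its link to Tnfrsf18 rests on distance alone.

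Among 100 CD molecules 6 carried sites, 3 with a gain and 4 with a loss, and the background share gives 6.51 genes. Cd80, the ligand of CD28 and CTLA-4, spans 38457430 to 38495958 on chromosome 16. In the authors' deposited table its site at 38460370, 1.44 kb downstream of the listed start, was hypomethylated by -25.2 percentage points (q-value 4.29e-12), and its site at 38483369 was hypermethylated by 26.8 points (q-value 3.35e-11). The pair lies 23.0 kb apart. The hypermethylated one lies inside the annotated pseudogene Ck-ps3, and whether reads from a related sequence took part in its value was not tested. Cd200r2, of the family of receptors for the inhibitory ligand CD200, had a site 816 bp upstream of its start, at 44866281 on chromosome 16, hypomethylated by -38.9 points in the authors' deposited table. This was the largest loss of any member. The 3 other members of its cluster, Cd200r1, Cd200r3 and Cd200r4, carried none within 5 kb.

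The other CD molecules are lymphocyte genes or genes of less certain assignment. Cd22, an inhibitory lectin of B cells, had a site at 30879702 on chromosome 7, inside the span and 674 bp upstream of the listed start, hypomethylated by -25.9 points in the authors' deposited table. Cd27, the receptor of CD70 on T cells, had a site at 125233648 on chromosome 6, hypomethylated by -25.2 points in the authors' deposited table. That CpG also lies inside the noncoding gene E130112N10Rik and 1.79 kb from Tapbpl, which encodes a peptide editor of MHC class I loading. Cd52, a lymphocyte surface glycoprotein gene, was assigned a site at 134098820 on chromosome 4 (26.7 points in the authors' deposited table), 3.75 kb after its span and 3.68 kb from Ubxn11. Cd164l2, named by similarity to the sialomucin gene Cd164, had a site 1.99 kb after its span, at 133226542 on chromosome 4, hypermethylated by 34.8 points in the authors' deposited table. Together with Tnfrsf9 and Tnfrsf18, 4 of 25 members on chromosome 4 carried a site, while 7.68% of its protein-coding genes did. Chromosome 4 is singled out here because its count was the highest of any chromosome, so no conclusion is drawn from it.

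Among 17 chemokine receptors, Cxcr5 was the one with a called site, where the background share gives 1.11. It encodes the receptor that guides B cells and follicular T cells toward CXCL13. The site at 44507402 on chromosome 9 was hypermethylated by 25.3 percentage points in the authors' deposited table, lies 4.39 kb from the Cxcr5 span and falls inside Bcl9l, a Wnt pathway gene. Given to the nearest protein-coding gene alone, it would not count for Cxcr5, and the Cd52 site would count for Ubxn11.

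The sites closest to gene starts were all losses. Within 1 kb of a listed start of a member lay 6 sites, at Tnfsf13b, Il13ra1, Cd22 and Cd200r2, and all 6 were hypomethylated (-25.9 to -38.9 percentage points in the authors' deposited table). Over all protein-coding genes 44.2% of the sites within 1 kb of a listed start were hypomethylated (118 of 267). The member sites farther than 1 kb from a listed start were 3 gains and 5 losses. This split was chosen after the values were seen, 3 of the 6 sites are those of Il13ra1, and the number of genes is 4. Cd52 and Cxcr5 had no listed start and are left out of these counts. Their sites, both gains, lie 3.75 kb and 4.39 kb outside the spans, so also farther than 1 kb from any start inside them. With these included, the farther sites hold all 5 gains at members beside the same 5 losses.

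Among the members, no chemokine ligand, no interleukin and no Toll-like receptor carried a called site. The counts were 0 of 37 chemokine ligands, 0 of 42 interleukins and other Il genes, and 0 of 12 Toll-like receptors, together 0 of 91. Only families with a count of 0 were put together here, so the 0 of 91 is fixed by the grouping and carries no conclusion. At the background share of 6.51% these 91 genes would hold 5.93 genes with a site, and at the shares of protein-coding genes in the same 5 classes of span length they would hold 4.06. The 3 ligand families together, with Tnfsf13b as the one gene of 90, would hold 4.01 on that reckoning. The remaining 190 members had 12 with a site, where the length classes give 11.1. The 90 again include the chemokine ligands and Il genes, whose counts were 0, so this contrast too carries no conclusion.

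**Figure D2:**
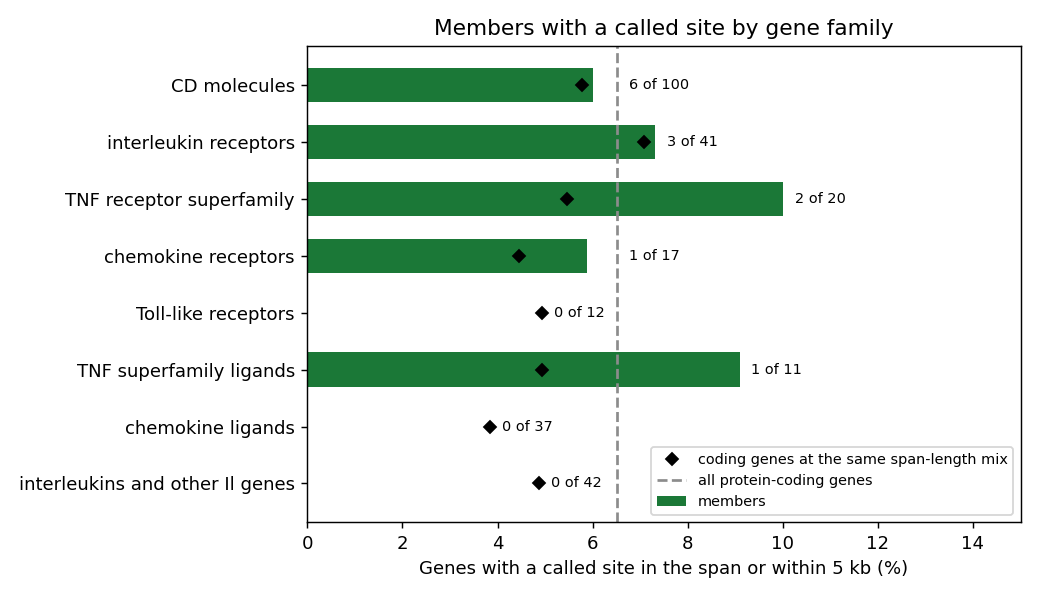
Bars give the percent of members of each family with a called site in the span or within 5 kb, with the counts beside them. The dashed line is the 6.51% of all protein-coding genes and the diamonds are the share that coding genes of the same span lengths would give. The bars of chemokine ligands, interleukins and Toll-like receptors are at 0, while no family has more than 6 genes with a site.

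Some absences covered whole gene clusters. For comparison, 71.6% of 278 members and 71.9% of 21523 protein-coding genes lay farther than 100 kb from a called site. The chemokine cluster of chromosome 11 from Ccl2 to Ccl1 (6 members) lay 407 to 548 kb from the nearest called site, and the one from Ccl5 to Ccl4 (5 members) 82.5 to 205 kb. The cluster from Cxcl5 to Cxcl2 on chromosome 5, which holds neutrophil attractants, lay at least 1598 kb away. The interleukin-1 receptor cluster on chromosome 1, from Il1r2 to Il18rap and with the interleukin-33 receptor gene Il1rl1 among its 6 members, lay 373 to 800 kb away. The cluster of interleukin-10 family genes from Il24 to Il10 lay 536 to 586 kb away. Other clusters without a called site lay at varied distances. The cluster from Cd300a to Cd300lf (11 members) lay 8.38 to 109 kb away. The one from Cd209a to Ccl25 (8 members) lay 41.2 to 329 kb away, and the one from Il1f8 to Il1rn (6 members) 489 to 681 kb. Some members are near-identical copies, such as Ccl21a, Ccl21b, Ccl21c and Ccl21d, which guide dendritic cells through Ccr7. Reads of such copies may not be assigned to any of them, and no absence can be read there. Without these 4 genes and the copies Ccl27a and Ccl27b, a choice made after seeing the data, the counts were 0 of 31 chemokine ligands and 0 of 85 ligands, Il genes and Toll-like receptors. The background share gives 5.53 genes for these 85, and the classes of span length give 3.81. The 85 come from the same families with a count of 0, so this 0 too is fixed by the grouping.

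On a background of 6.51% of protein-coding genes with a site, genes of dendritic cell function gave small counts. Of 19 members on a list of costimulation and activation genes, 2 carried a site (Cd80 and Tnfrsf9) where the background share gives 1.24, and of its 5 other genes 1 did, the actin-bundling gene Fscn1 (36.3 percentage points in the authors' deposited table). The nearest called site was 305 kb from Cd86, 165 kb from Cd40 and 215 kb from Cd274, and 222 kb from the migration receptor gene Ccr7. Of 14 members on a list of Toll-like receptor sensing, and of its 14 adaptor and partner genes such as Myd88 and Irak4, 0 carried a site, where the background share gives 1.82 for the 28 genes together. The Toll-like receptor closest to one was Tlr13, at 18.7 kb, and Tlr4 was 1061 kb away. Of 7 members on a list of dendritic cell identity and antigen presentation 0 carried a site, and of its 24 other genes 1 did, the adhesion gene Cadm1, where the background share gives 2.02 for the 31 genes. Markers of plasmacytoid dendritic cells were kept on a list of their own. There 3 of 8 genes carried a site, none of these 3 a member, where the background share gives 0.521.

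On the type 2 and allergic list, Il13ra1 was the one of 35 members with a called site, where the background share gives 2.28. A further 4 members of this list lay within 50 kb of one, namely Tnfrsf4 at 15.1 kb, Il9r at 25.8 kb, Il2rg at 31.1 kb and Il3 at 44.8 kb. The share of all protein-coding genes within 50 kb was not computed. It was 10.7% within 20 kb and 27.6% within 100 kb. The nearest called site was 474 kb from Il4, 458 kb from Il13, 367 kb from Il5 and 309 kb from Il4ra. It was 147 kb from the alarmin gene Il33 and 97.5 kb from Il25. The chemokine receptor genes Ccr3, Ccr4 and Ccr8, found on eosinophils and type 2 T cells, lay 108 kb, 393 kb and 172 kb from a site. Of the 14 other genes of the list 2 carried a site, the kinase gene Jak1 (36.05 percentage points in the authors' deposited table) and the transcription factor gene Gata3 (25.9 points in the authors' deposited table), where the background share gives 0.912. Of 28 members on a list of T cell polarising and regulatory cytokines and receptors 0 did, where the background share gives 1.82, with Il12b at 564 kb, Il10 at 554 kb and Il6 at 2133 kb from the nearest, and of 7 others 1 did (Tgfb2, -27.5 points in the authors' deposited table). On a list of chemokine guidance the counts were 1 of 26 members (Cxcr5) and 0 of 5 others, where the background share gives 1.69 and 0.326.

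Genes that mark other splenic cells were among the members with sites. Cd22 and Cxcr5 are 2 of the 6 members on a list of B cell markers, whose other 5 genes had 0. Their directions differed (-25.9 points at Cd22 and 25.3 at Cxcr5 in the authors' deposited table), and the Cxcr5 site lies inside Bcl9l. The background share gives 0.716 for these 11 genes. On the list of T and NK cell markers 0 of 8 members and 2 of 5 others (Prf1 and Tbx21) carried a site. On that of macrophages, monocytes and neutrophils the counts were 0 of 5 and 1 of 8 (Elane). The list of plasmacytoid dendritic cells, which are dendritic cells themselves, had 0 of 2 members and 3 of 6 others (Runx2, Spib and Tcf4). On that of erythroid cells and platelets 1 of 8 genes carried one (Ank1), and none of the 8 is a member. For these 4 lists the background share gives 0.846 of 13, 0.846 of 13, 0.521 of 8 and 0.521 of 8 genes. Directions were mixed. In the authors' deposited table Prf1 (-33.8 points), Elane (-26.1 points) and Runx2 (-28.0 points) had a loss. Tbx21 (27.2 points), Spib (26.8 points) and Ank1 (26.6 points) had a gain, and Tcf4 had 1 gain and 2 losses. A change of methylation within dendritic cells and a change in the mixture of cells cannot be told apart in these tables.

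The median distance from the span to the nearest called site was 238 kb for the members and 258 kb for all protein-coding genes on chromosomes with a called site. Genes that the gene table starts before base 3000000 of a chromosome, among them the 2 members Cd99 and Ccl21c, were given no distance, since these positions may belong to unplaced scaffolds and 0 called sites of the named chromosomes lie there. Within 20 kb there was a site for 23 members (8.21%) and for 10.7% of protein-coding genes, and within 100 kb for 79 (28.2%) and 27.6%. Inside the span there was one for 8 members (2.86%) and for 4.95%. Farther than 1 Mb from any called site lay 31 of 278 members (11.2%) and 16.0% of protein-coding genes.

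**Figure D3:**
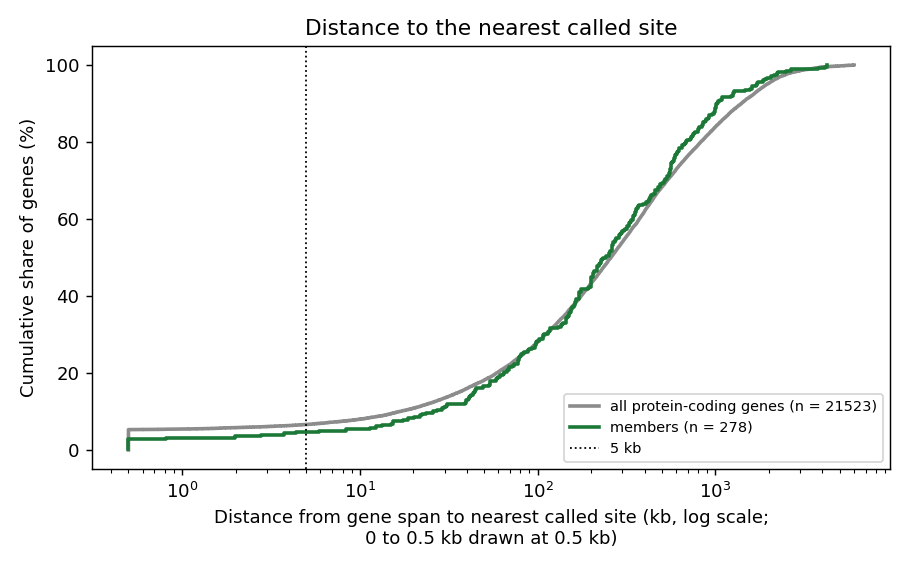
Cumulative share of genes (%) against the distance from the gene span to the nearest called site (kb, log scale) for the 278 members with a distance and for all protein-coding genes on chromosomes with a called site. The member curve is below the other at short distances (at 5 kb, 4.64% of all 280 members and 6.51% of all protein-coding genes) and the curves run together at 100 kb.

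Close to the 5 kb limit, Cxcr5 (4.39 kb) and Cd52 (3.75 kb) were the farthest inside. Among the members nearest outside it were Tnfrsf1a (5.87 kb), Cd300lb (8.38 kb), Cd248 (11.4 kb), Cd300c (13.4 kb), Tnfrsf4 (15.1 kb), Il34 (15.3 kb), Cxcr3 (15.4 kb), Il2ra (17.5 kb) and Tlr13 (18.7 kb). Tnfrsf4, the receptor of OX40 ligand, and Il2ra, the alpha chain of the interleukin-2 receptor, were placed there by the sites of their neighbours Tnfrsf18 and Il15ra. The site beyond Il34, a ligand of the CSF1 receptor, was hypermethylated by 39.5 percentage points in the authors' deposited table. The site beyond Tnfrsf1a, the main TNF receptor gene, was hypermethylated by 25.8 points in the authors' deposited table.

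Members had shorter spans and promoters with fewer CpGs than protein-coding genes in general. Their median span was 12.0 kb, against 17.1 kb. In all protein-coding genes the share with a called site grew with the span, from 2.69% under 5 kb through 5.12%, 6.01% and 9.34% to 16.5% at 100 kb or more. Taken at these shares, 15.1 members would carry a site, and 13 did. By class the members had 4 of 69 under 5 kb, 2 of 114 from 5 to 20 kb, 5 of 66 from 20 to 50 kb, 1 of 23 from 50 to 100 kb and 1 of 8 above. Under 50 kb as a whole 11 of 249 members (4.42%) and 4.67% of protein-coding genes carried one.

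A RefSeq promoter window was given for 212 members and 17492 protein-coding genes. For a gene with several windows the highest count was used. The motifs searched were CG and CCGG, which read the same on both strands, and every CCGG contains a CG. The median number of CG in the 300 bases was 5 for members and 15 for all. Fewer than 5 CG were found in 45.8% of members and 27.5% of all, and 20 or more in 10.4% and 38.9%. CCGG was present in the windows of 100 members (47.2%) and in 64.5% of all. A called site was carried by 11 of the 212 members with a window (5.19%) and by 6.37% of all genes with one. Among all genes the share with a called site was 2.79% at 0 to 4 CG, 6.56% at 5 to 9, 7.18% at 10 to 19 and 8.41% at 20 or more. The members had 4 of 97, 4 of 59, 2 of 34 and 1 of 22 in these classes.

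**Figure D4:**
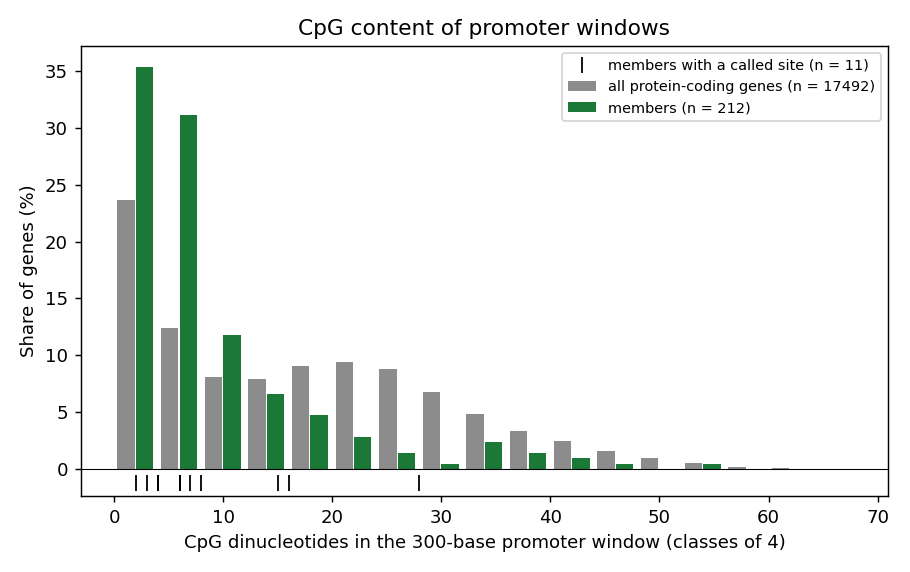
Share of genes (%) by the number of CpG dinucleotides in the 300-base promoter window, in classes of 4, for 212 members and 17492 protein-coding genes, with ticks for the 11 members that carry a called site (ticks of equal value overlap). Members crowd in the lowest classes (median 5, against 15).

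All 11 members with both a promoter window and a called site had CCGG in that window. Of the 100 members with CCGG 11 carried a site (8.01% of all protein-coding genes with CCGG did), and of the 112 without it 0 did (3.40% of all without it). At the share of 3.40% the 112 genes would hold 3.80 with a site, so the count of 0 is a small difference in genes. Most of these sites lie outside the window, in which the motif is a description of the sequence and not of coverage. Which CpGs the libraries covered was not analysed here, and the part of coverage in the absences was not tested.

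**Figure D5:**
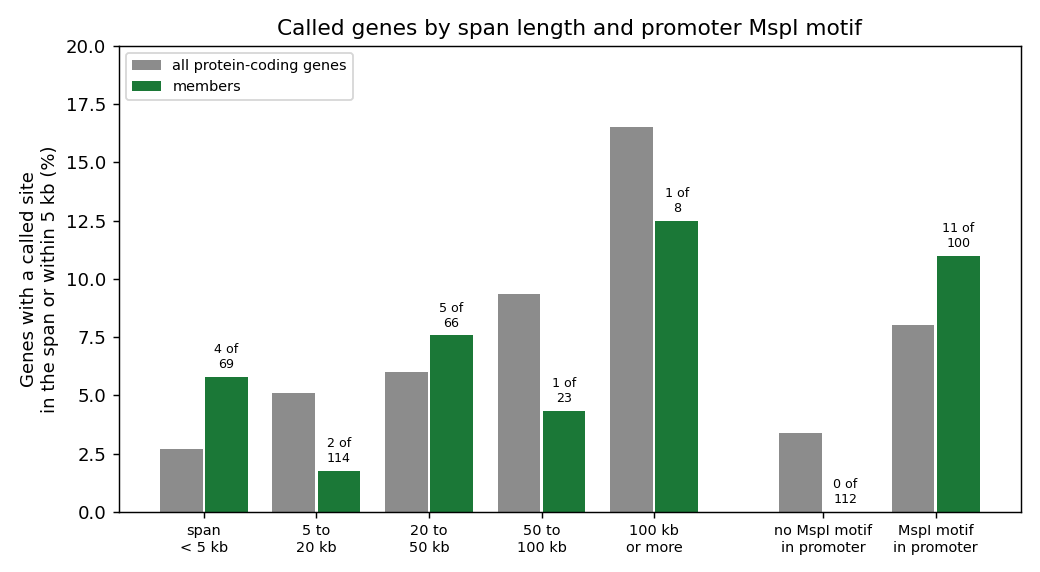
Percent of genes with a called site in the span or within 5 kb, by span length (5 left pairs of bars) and by presence of the MspI cut motif in the promoter window (2 right pairs), for all protein-coding genes (grey) and members (green, with counts). The share grows with span length in all genes, and members without the motif are at 0 of 112.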

How the data were processed

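Per the file headers, the deposited table of differential methylation and its hypermethylated (1354 sites) and hypomethylated (1444 sites) parts give each site a signed difference in percentage points with its p-value and q-value. The submitters' processing notes name methylKit and GRCm38 (mm10). The sources used here do not say how reads were aligned, filtered on coverage and tested. Depth is therefore unknown, and no interval, standard deviation or test over samples was computed.

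From the deposited sites, distances to RefSeq GRCm38.p6 protein-coding spans were computed with Python 3.11.15 and pandas 2.3.3. A gene was counted if a site lay in its span or within 5 kb, and a site near several members was counted once. Assignment was checked on simulated data: 200 of 200 planted sites were handled correctly over 21631 genes. Of the called sites, 74 lay in a RefSeq promoter window, and all 74 were the C of a CG there. The gene table gives no exons, so exonic and intronic positions were not analysed here. The q-values printed are the deposited ones.

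Every member with a site was named, with the 10 members nearest outside 5 kb and members of 6 function lists as absences. A gene that this rule takes is not reported here. Other genes of the 6 function lists and 5 marker lists were named where they carried a site or as examples. The members and lists were chosen with earlier results of these data known. Shares were set beside those of all protein-coding genes without a test. The alternatives were other distances, sizes of difference, a q-value limit, merged sites, autosomes only, shorter genes, 9 members left out as matched by name only, and the nearest gene only.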

Additional observations from a re-analysis of the deposited data

How the results depend on the processing

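Within gene spans alone 8 members carried a site, within 20 kb 23 did, and with differences of at least 30 or 40 percentage points 5 and 1 did. All protein-coding genes moved in the same way, to 4.95%, 10.7%, 3.02% and 0.425%. The number of sites was 5 and 1 at the 2 larger differences, with medians of 36.1 and 43.7 points, since these settings remove the smaller ones by construction. Hypermethylated sites numbered 2 within spans, 2 within 1 kb, 8 within 20 kb, 2 and 1 at 30 and 40 points, and 3 with each site given to its nearest gene, a setting chosen after seeing the data. Hypomethylated sites numbered 3 and 0 at 30 and 40 points, and 7 both on autosomes and in spans under 50 kb, which leave out Il13ra1 and Il1rapl2. Losses were more numerous than gains in every setting except the one of 40 points, where the single site was that of Tnfrsf9. A q-value under 1e-10 removed the Cd27 site alone. No paired analysis was possible because the files hold no value per library, and for the same reason no library could be left out. The depth behind each site is unknown, which limits every absence named here.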

Other observations

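Between 20 and 50 kb from a called site lay 23 further members. The share of all protein-coding genes in this band was not computed, so the count of 23 cannot be called high or low. The genes named below are examples from the 23. Within 20 kb lay 8.21% of members and 10.7% of protein-coding genes, and within 100 kb 28.2% and 27.6%. Among the sites near these 23 members was that of -41.8 percentage points near Tnfsf9, the ligand of the Tnfrsf9 product, at 23.5 kb. Another was that of -38.9 points near Cd200r4 at 27.1 kb (the site upstream of Cd200r2), both from the authors' deposited table. Cd74, the invariant chain of MHC class II, lay 28.9 kb from a site of 29.4 points in the authors' deposited table. Il2rg, the common gamma chain gene on the X chromosome, lay 31.1 kb from a site of -25.2 points in the authors' deposited table.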
